A study of Mus musculus with 48 samples.

Results

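The 10 immediate early genes Fos, Fosb, Jun, Junb, Egr1, Egr2, Egr3, Ier2, Atf3 and Nr4a1 were followed through the hair cycle of mouse skin and in 3 tissues that include the ear. They were taken by gene name from the 46983 genes of each of 2 expression tables, and all 10 were present in both. The set had been chosen by its FPKM in the ear table, where it was high in the cartilage/muscle complex of the ear, so its level in that tissue is a description and carries no test. All animals were C57BL/6 mice, for which the labels name no treatment and no transgene, and give skin location and hair cycle stage but no age or sex. The skin table holds 43 RNA-seq libraries of whole skin from 3 domains (chin, ventral and dorsal) at 6 stages: the early, mid and late parts of anagen (growth), catagen (regression), and the refractory and competent parts of telogen (rest). Each of the 18 groups has 2 or 3 libraries. The ear table holds 7 libraries, which are 3 of the cartilage/muscle complex, 2 of telogen ear skin and 2 of dorsal competent telogen skin. The dorsal libraries are the same in both tables, which leaves 48 distinct libraries. Values are FPKM, fragments per kilobase of transcript scaled to the library's mapped fragments, so levels of different genes are compared per length.

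Immediate early genes are switched on within minutes when a cell meets a growth factor, a stress or an injury, without any new protein having to be made first. Serum response factor with its ETS partners, and CREB, bind their promoters and are activated by MAP kinases and by calcium or cAMP signals. Most of their products are transcription factors that carry the signal to later genes: FOS and JUN proteins pair to form AP-1, EGR proteins are zinc finger factors, and NR4A1 is an orphan nuclear receptor. In skin they are known for their response to wounding and to mechanical handling. Whole skin holds epidermis, follicles, dermis, fat, vessels and some muscle, and in such bulk samples fewer cells of a type and less RNA per cell cannot be told apart.

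The labels and the base composition of some libraries bear on what follows. The 2 libraries labelled chin late anagen were as close to the 2 dorsal competent telogen libraries (median absolute log2 difference over genes 0.10 to 0.12 in 4 pairs) as replicates were to each other (0.09 to 0.29 in 32 pairs), while all other pairs from different groups lay between 0.15 and 0.55. Hoxb7, a marker of trunk position picked after its values were seen, read 7.25 to 8.41 FPKM in the libraries labelled chin late anagen and at most 0.77 FPKM in every other chin library. The dorsal libraries labelled competent telogen in turn had a summed level of the hair shaft and matrix markers of 14271 FPKM, against 7038 and 5764 FPKM in chin and ventral competent telogen. The counts across domains in late anagen and of the chin stage F-test are therefore given with and without those libraries. No tested contrast includes the dorsal competent telogen libraries, although they enter the estimate of spread shared by all groups. Ventral catagen replicate 1, 1 of 2 libraries of its group, is ventral by its title and source but carries 1 label entry that names an ear region. Without it the counts of members from ventral catagen to refractory telogen were as given below (5 rose, 1 fell), while 3 rather than 6 fell from ventral late anagen to catagen, and dorsal catagen was below ventral for 5 members and above it for 0, rather than 6 and 1. Dorsal catagen stood apart in base composition. Between the tenth of genes with the highest and the tenth with the lowest GC content, the median deviation differed by -0.82 and -0.81 (log2) in the 2 dorsal catagen libraries, and by -0.24 to 0.39 in the other 41. Estimated depth was 6707741 to 30016952 fragments per library. Nothing in the labels says that replicates came from separate mice, so p-values measure the spread between these libraries only, which may be technical.

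Promoter sequences near the start were searched for known motifs, and are printed for genes whose profiles in skin were alike, as described further on. RefSeq promoter windows of 300 bases (build GRCm38.p6, 250 before and 50 after the start) matched 7 of the 10 members, Fos, Fosb, Jun, Junb, Egr2, Atf3 and Nr4a1. Egr1, Egr3 and Ier2 did not match. The 100 bases before the start are written 5′ to 3′ on the gene's strand, and capitals mark each match to TGACGT (the core of the CREB site), TGANTCA (the AP-1 site), GCGNGGGCG (the EGR site), the CArG box (the site of serum response factor) or TATAAA. All were searched on both strands except TATAAA, which was searched on the gene's strand. First come Fos, Fosb, Nr4a1 and Atf3, whose levels correlated over the skin groups.
Fos (chr12:85473790-85473889, + strand): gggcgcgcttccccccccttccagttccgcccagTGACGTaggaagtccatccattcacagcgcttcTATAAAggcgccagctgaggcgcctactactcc
Fosb (chr7:19310046-19310145, - strand): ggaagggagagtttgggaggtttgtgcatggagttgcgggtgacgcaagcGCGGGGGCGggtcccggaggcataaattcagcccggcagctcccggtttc
Nr4a1 (chr15:101266746-101266845, + strand): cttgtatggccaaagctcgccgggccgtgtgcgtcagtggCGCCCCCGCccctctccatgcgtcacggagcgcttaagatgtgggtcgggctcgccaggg
Atf3 (chr1:191183334-191183433, - strand): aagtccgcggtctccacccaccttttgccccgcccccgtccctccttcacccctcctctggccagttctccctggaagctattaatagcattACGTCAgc
Jun and Junb are shown for comparison, since their profile over the skin groups differed from that of those 4.
Jun (chr4:95052223-95052322, - strand): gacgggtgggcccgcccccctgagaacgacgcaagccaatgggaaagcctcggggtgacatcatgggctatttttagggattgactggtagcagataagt
Junb (chr8:84978749-84978848, - strand): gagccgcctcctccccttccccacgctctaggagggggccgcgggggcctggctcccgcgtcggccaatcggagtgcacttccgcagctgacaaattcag
Egr2 has 5 annotated windows, and the third is shown because it holds both a CArG box and a TGACGT core.
Egr2 (chr10:67537769-67537868, + strand): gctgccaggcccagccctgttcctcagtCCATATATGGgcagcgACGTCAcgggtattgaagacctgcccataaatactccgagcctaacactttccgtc
TGACGT stood in the windows of Fos, Atf3 and Egr2, at position -66 from the start in Fos, -8 in Atf3 and -56 in the Egr2 window, and in 7.51% of 32851 mouse windows of the same length. GCGNGGGCG was found in Fosb at position -50 and in Nr4a1 at -60, and in 5.55% of all windows. A CArG box was found in Egr2 only, at -72 in the window printed, and in 1.63% of all windows. TATAAA stood in the windows of Fos (position -33) and Junb (position 0, at the start itself and outside the bases printed), and in 8.32% of all. TGANTCA (7.81% of all windows) and the full palindrome TGACGTCA, which contains TGACGT (1.79%), were in none of the 7. None of the searched motifs was thus in all 4 genes of the first set: TGACGT was in 2 of them and GCGNGGGCG in the other 2. Sites outside these windows, or with other letters than those searched, were not looked for. Absence from a window therefore does not mean that a gene lacks the site.

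In the ear table, Fos was listed at 3648, 4254 and 3665 FPKM in the cartilage/muscle complex, against 23.3 and 23.0 FPKM in ear skin and 35.5 and 36.5 FPKM in dorsal skin. By mean level it stood 28th of the 19299 genes that reached 0.5 FPKM in 2 or more of those libraries. Fosb, a FOS paralogue that also pairs with JUN proteins, read 149, 143 and 155 FPKM in the complex and 0.84 to 1.41 FPKM in the other 4 libraries. The JUN partners were also high there. Jun read 682, 802 and 682 FPKM and Junb 1832, 2054 and 1901 FPKM in the complex, against 19.6 to 32.9 FPKM and 138 to 184 FPKM in the other libraries. Atf3, a stress-induced factor that joins AP-1 dimers, averaged 317 FPKM in the complex, 2.19 FPKM in ear skin and 1.89 FPKM in dorsal skin.

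The zinc finger genes split. Egr1 averaged 949 FPKM in the complex, 23.4 FPKM in ear skin and 53.4 FPKM in dorsal skin, while Egr2 was only 3.04 and 3.40 times above ear and dorsal skin (50.7, 16.7 and 14.9 FPKM). Egr3 was the exception, with 1.82, 2.64 and 2.17 FPKM in the complex, 3.20 and 3.08 FPKM in ear skin and 2.60 and 3.00 FPKM in dorsal skin. Its libraries in the complex and in dorsal skin overlapped. Nr4a1 averaged 364 FPKM in the complex against 5.94 and 6.76 FPKM, and Ier2, whose product is a small nuclear protein, 1605 against 115 and 87.3 FPKM. Thus 9 of the 10 members exceeded each of the other tissues 2-fold or more, without overlap of libraries. Of all 19299 genes, 15.5% did, and since this contrast chose the members nothing is read from the difference.

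**Figure D1:**
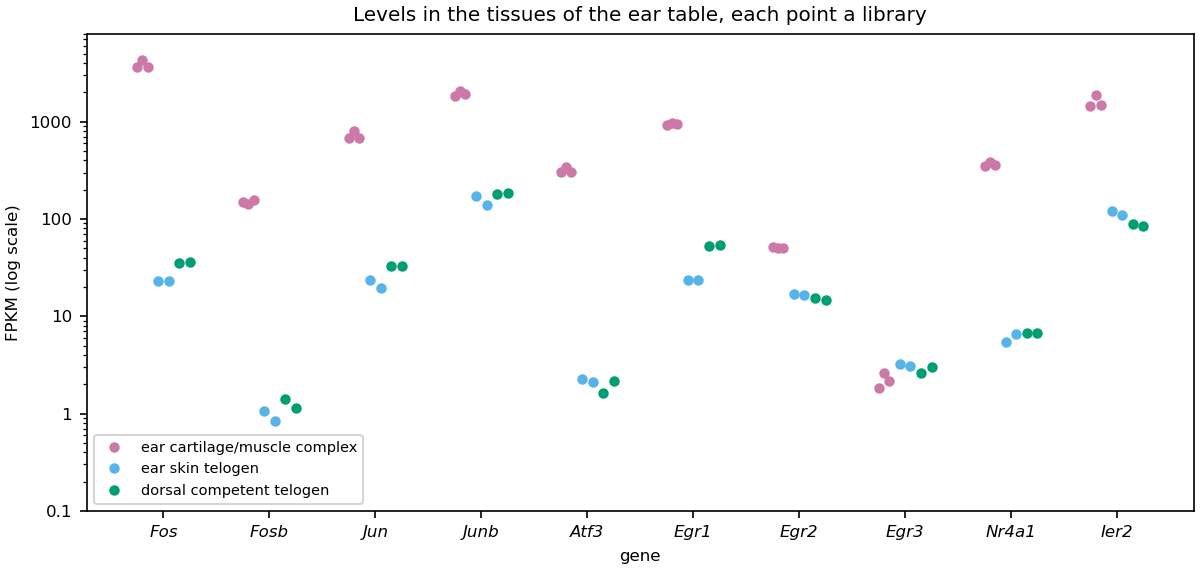
FPKM (log scale) of each immediate early gene in every library of the ear table, with colours for the cartilage/muscle complex (3 libraries), telogen ear skin (2) and dorsal competent telogen skin (2). The complex lies above both skins for 9 genes, from a mean of 50.7 FPKM for Egr2 up to 3856 FPKM for Fos, and not for Egr3.

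The complex carried the markers of its label. Of the cartilage markers measured, 8 of 9, and of the skeletal muscle markers 6 of 10, were at least 2-fold above both skins, and the summed level of 10 epidermal keratinocyte markers was 8.0 to 8.5 FPKM in the complex against 13757 to 14777 FPKM in ear skin. The ear skin libraries also differed in the Y-linked gene Ddx3y (30.4 to 32.2 FPKM, and at most 0.03 FPKM in every other library). The part of either difference in the members' levels was not tested, and the second cannot be told apart from ear skin in these libraries. With dorsal refractory telogen skin as the comparator in place of the dorsal libraries labelled competent telogen, the same 9 members lay above both tissues, but the ratio over dorsal skin fell from 107 to 26.9 for Fos and from 168 to 36.7 for Atf3.

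Levels of other listed genes were described in the same contrast. Of 49 further immediate early and primary response genes tested, 32 were at least 2-fold above both skins and 3 at least 2-fold below both. Of all 19299 genes tested, 2999 (15.5%) were above both and 3238 below both. That contrast chose the members, and the list was made with earlier results of these data known, so nothing is read from the difference. Arc, which encodes a synaptic cytoskeletal protein, averaged 75.8 FPKM against 0.585 and 0.76 FPKM in ear and dorsal skin, and the matricellular genes Cyr61 (1461 against 14.2 and 18.6 FPKM) and Ctgf (1080 against 19.4 and 12.6 FPKM) were similar in size. Of 19 upstream factors (serum response factor, its cofactors, CREB family members and MAP kinases) 0 were 2-fold above both skins. Of 14 heat shock genes 2 were, which is near the share of all genes. They were the inducible chaperone gene Hspa1a (114 against 40.6 and 13.3 FPKM) and its co-chaperone Bag3 (42.0 against 14.4 and 13.4 FPKM).

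In the skin domains every member varied with stage, but along different lines. In limma's F-test across stages, with Benjamini-Hochberg adjustment over 21257 genes, 10 of 10 members passed in chin, in ventral and in dorsal skin, where 66.2%, 70.2% and 67% of all genes passed. Without the libraries labelled chin late anagen the chin count was 9. The profile over stages also differed between domains for 10 of 10 members (69.8% of all genes), in a test that includes those libraries and dorsal catagen. With most genes passing, these counts say little about the members, and their size and shape are given instead.

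**Figure D2:**
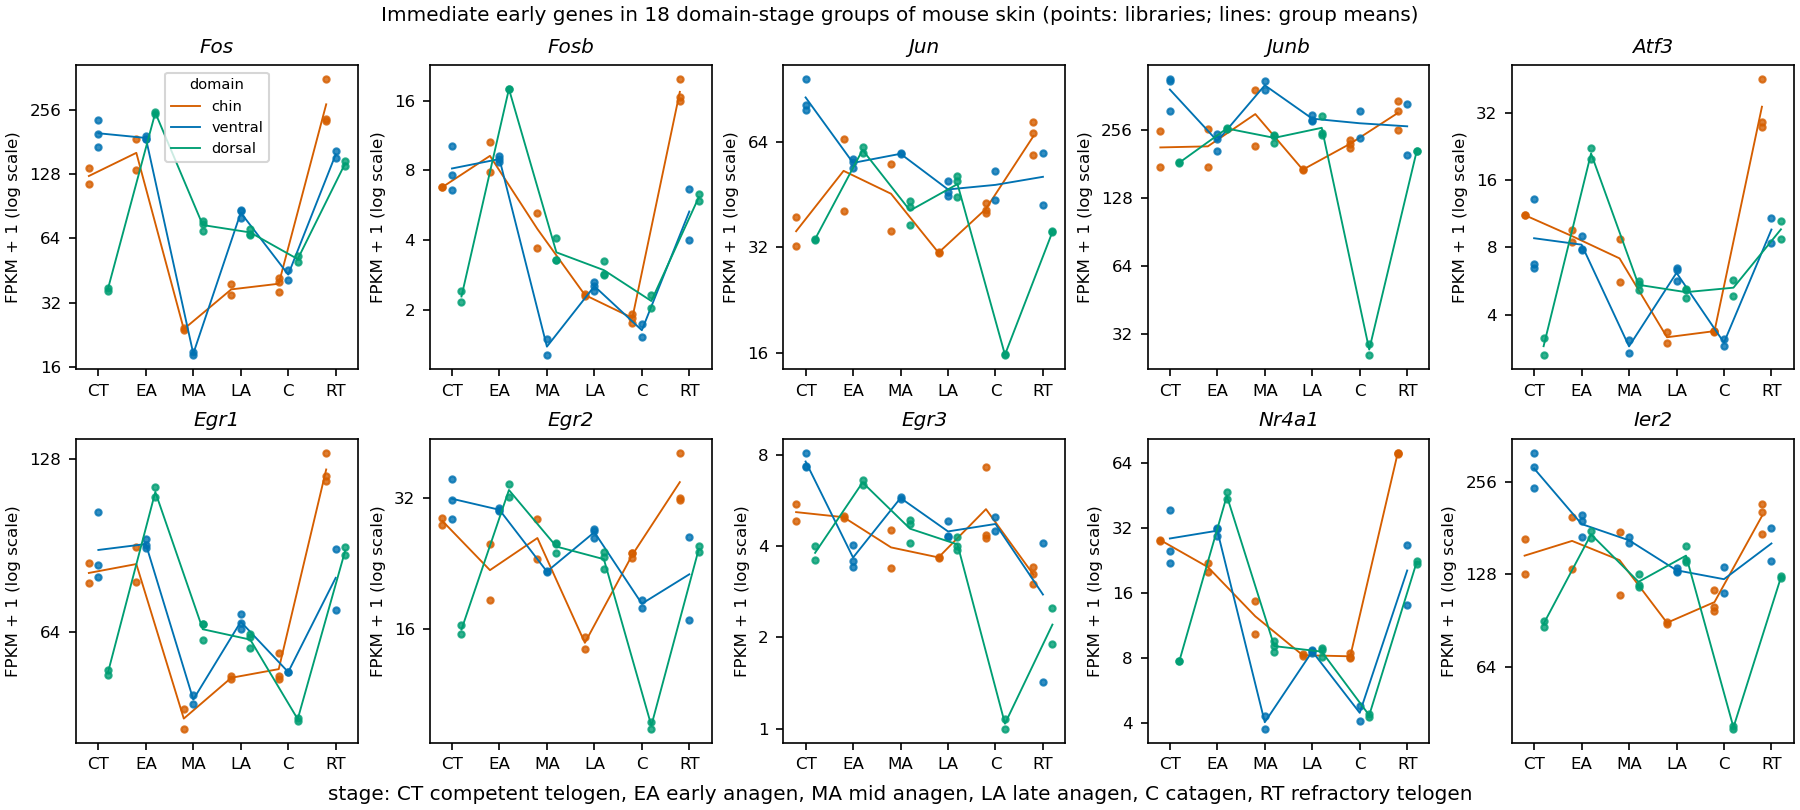
FPKM + 1 (log scale, base 2) of the 10 immediate early genes in each of 43 libraries of chin, ventral and dorsal skin, by hair cycle stage, with lines through group means. Fos, Atf3 and Nr4a1 have their highest mean in chin refractory telogen (272, 33.2 and 69.7 FPKM) and their lowest in ventral mid anagen (17.4, 1.89 and 3.05 FPKM), whereas Jun, Junb, Egr2, Egr3 and Ier2 are lowest in dorsal catagen.

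Fos ran from 17.8 and 17.1 FPKM in ventral mid anagen to 232, 358 and 227 FPKM in chin refractory telogen, a ratio of means of 15.6. It read 251 and 246 FPKM in dorsal early anagen, the next highest group, whose libraries overlapped with those of chin refractory telogen. Fosb ran from 0.50 and 0.27 FPKM in ventral mid anagen to 16.93 and 16.97 FPKM in dorsal early anagen (44.0-fold), with 15.6, 18.8 and 14.9 FPKM in chin refractory telogen. Both FOS genes thus had their 2 highest groups in common, and their lowest.

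Nr4a1 read 69.5, 70.2 and 69.3 FPKM in chin refractory telogen and 3.32 and 2.77 FPKM in ventral mid anagen, 22.9-fold apart. Atf3 read 26.9, 44.4 and 28.2 FPKM and 2.08 and 1.69 FPKM in the same 2 groups, 17.6-fold apart. Egr1 had a similar profile over a narrower range, from 43.9 and 44.5 FPKM in dorsal catagen to 116, 130.4 and 119 FPKM in chin refractory telogen, 2.76-fold. Its libraries in chin mid anagen (42.5 and 46.1 FPKM) overlapped with those of dorsal catagen. For each of these 3 genes chin refractory telogen was the highest group, with no overlap with dorsal early anagen, the next. Egr2, a factor known for its role in Schwann cells, had group means up to 3.93-fold apart, with single libraries between 8.41 and 39.6 FPKM.

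Outside dorsal catagen the JUN genes and Ier2 stayed within a narrower band. Jun lay between 29.7 and 95.5 FPKM in all libraries but those of dorsal catagen, where it read 14.8 and 14.9 FPKM. Junb, which unlike Jun often restrains AP-1 activity, was the most abundant member in most groups, between 169 and 431 FPKM outside dorsal catagen and at 27.8 and 24.6 FPKM in it. Ier2 read 39.1 and 40.0 FPKM in dorsal catagen and 319, 285 and 244 FPKM in ventral competent telogen. Egr3 was low throughout, at most 7.13 FPKM, and was listed at 0.08 and 0.00 FPKM in the dorsal catagen libraries.

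Over the 18 group means of log2(FPKM + 1) the members fell into 2 sets. Fos, Fosb, Nr4a1, Atf3 and Egr1 correlated with each other at Pearson's r of 0.84 to 0.97 in 10 pairs. Jun, Junb and Ier2 correlated at 0.86 to 0.95 in 3 pairs, and the 15 pairs across the sets at 0.13 to 0.65. Egr2 lay between the sets (0.57 with Fos, 0.87 with Ier2), and Egr3 was closest to Junb (0.78) and apart from Fos (0.04). These values are descriptions, since the 18 means share libraries, normalization and the 2 dorsal catagen libraries described above.

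**Figure D3:**
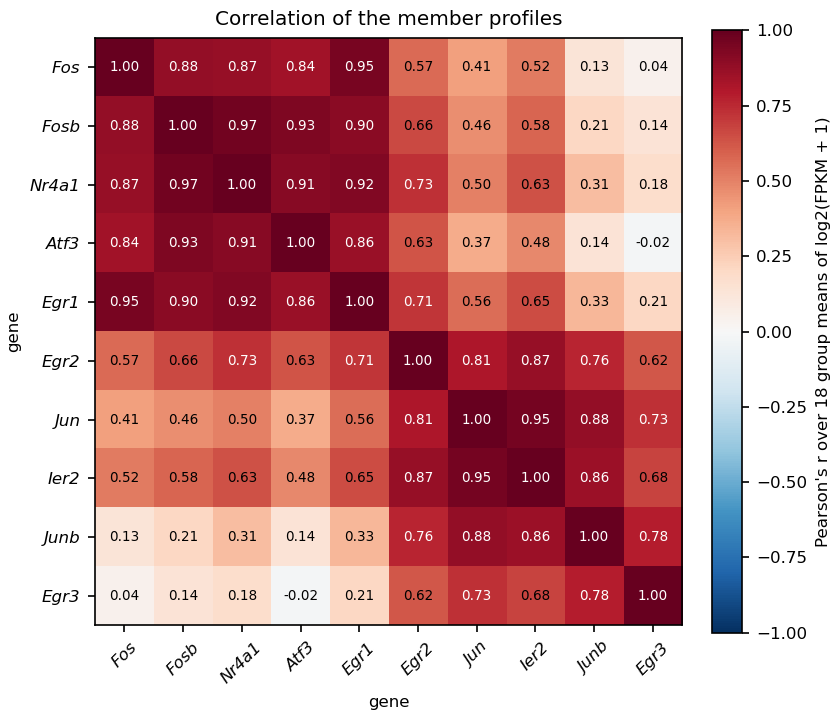
Pearson's r between the profiles of the 10 immediate early genes over the 18 group means of log2(FPKM + 1) in skin. The block of Fos, Fosb, Nr4a1, Atf3 and Egr1 lies between 0.84 and 0.97, and Egr3 has r of 0.04 with Fos and 0.78 with Junb.

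From catagen to refractory telogen 9 members rose and 1 fell in chin skin, where 30.5% of all genes rose and 17.5% fell. In ventral skin 5 rose and 1 fell (14.9% and 18.8% of all genes), and in dorsal skin 10 rose (19.1%). Fos, Fosb, Atf3, Egr1 and Nr4a1 rose in all 3 domains, which 5.66% of all genes did. The median log2 difference of the 10 members was 1.04 in chin, 0.46 in ventral and 1.42 in dorsal skin, against 0.09, -0.03 and 0.00 over all genes.

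Fos went from 35.0, 40.8 and 38.9 FPKM in chin catagen to the values of chin refractory telogen given above, a log2 difference of 2.77 ± 0.12 (adjusted p = 5.68e-16). In ventral skin it went from 44.8 and 39.9 to 152 and 164 FPKM, by 1.87 ± 0.15 (adjusted p = 2.1e-10), and in dorsal skin from 52.0 and 48.4 to 147 and 139 FPKM, by 1.49 ± 0.15 (adjusted p = 3.85e-09). The libraries of the 2 stages did not overlap in any domain. Atf3 rose from 2.39, 2.38 and 2.36 FPKM in chin catagen, by 3.30 ± 0.19 (adjusted p = 6.15e-14) on the log2 scale, and by 1.67 ± 0.23 (adjusted p = 2.4e-06) in ventral and 0.87 ± 0.23 (adjusted p = 0.00328) in dorsal skin. The dorsal call for Atf3 was lost without dorsal refractory telogen replicate 1 (0.73, adjusted p = 0.051).

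Nr4a1 rose by 3.12 ± 0.16 (adjusted p = 5.78e-15) in chin, 2.12 ± 0.20 (adjusted p = 2.07e-09) in ventral and 2.35 ± 0.20 (adjusted p = 7.6e-11) in dorsal skin. Fosb rose by 3.24 ± 0.16 (adjusted p = 2.34e-15), 1.66 ± 0.19 (adjusted p = 1.01e-07) and 1.49 ± 0.19 (adjusted p = 2.29e-07) in the same order, and Egr1 by 1.15 ± 0.08 (adjusted p = 1.57e-12), 0.53 ± 0.10 (adjusted p = 8.52e-05) and 0.97 ± 0.10 (adjusted p = 2.57e-09). For all 5 genes the value in chin was the highest of the 3 domains. Jun, Egr2 and Ier2 rose in chin by 0.68 ± 0.14 (adjusted p = 0.000187), 0.54 ± 0.11 (adjusted p = 0.000228) and 0.93 ± 0.14 (adjusted p = 3e-06).

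Egr3 went the other way in 2 domains. It read 6.27, 3.25 and 3.36 FPKM in chin catagen and 2.01, 2.41 and 2.24 FPKM in chin refractory telogen, a log2 difference of -0.67 ± 0.22 (adjusted p = 0.0115) that was lost without chin catagen replicate 1 (-0.42, adjusted p = 0.132). In ventral skin it fell from 3.97 and 3.49 to 3.11 and 0.43 FPKM, a difference of -0.96 ± 0.27 (adjusted p = 0.00579), and without ventral refractory telogen replicate 2 the value was -0.20 (adjusted p = 0.538). The low library there was 1 of 2.

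**Figure D4:**
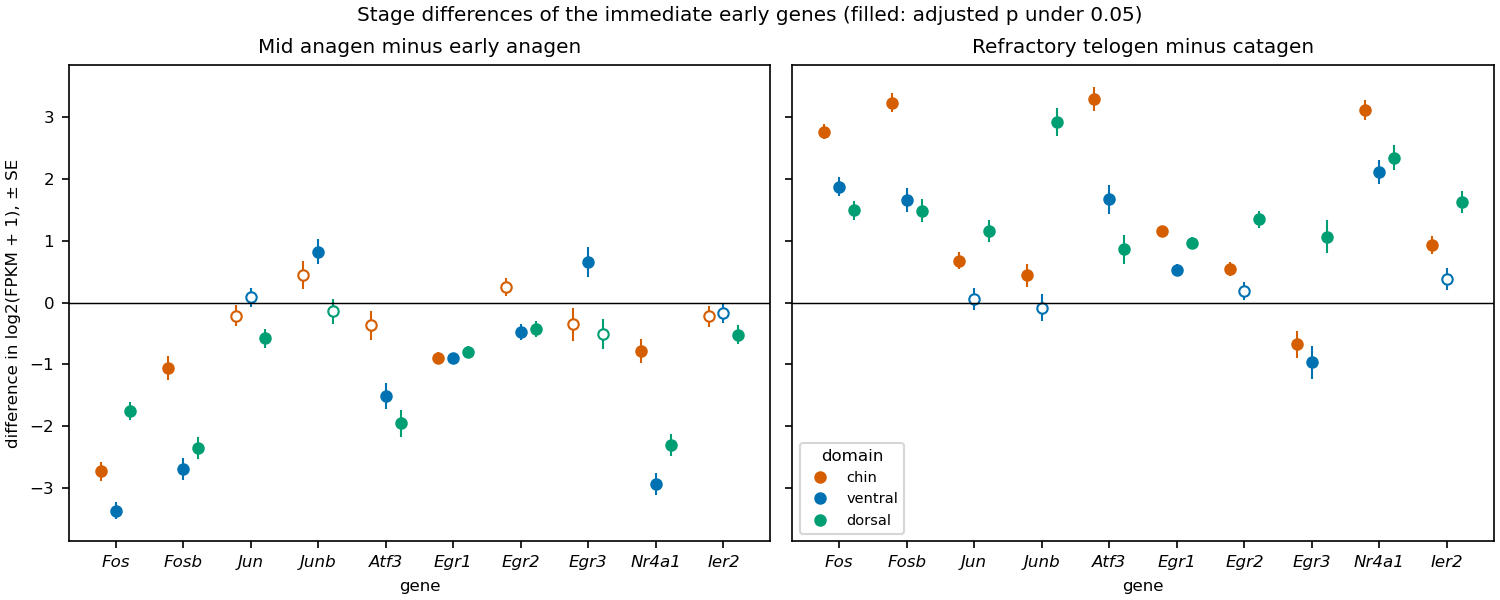
Differences in log2(FPKM + 1), with standard errors, of mid anagen minus early anagen (left) and refractory telogen minus catagen (right) for the 10 immediate early genes in chin, ventral and dorsal skin; filled points have an adjusted p under 0.05. Fos falls by 1.75 to 3.37 on the left and rises by 1.49 to 2.77 on the right, and Egr3 falls in chin and ventral skin on the right.

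From early to mid anagen several members fell in each domain. The count was 4 in chin (14.5% of all genes), 6 in ventral (25.6%), where 2 rose (16.8%), and 8 in dorsal skin (30.1%). Fos, Fosb, Egr1 and Nr4a1 fell in all 3 domains, as 4.35% of all genes did. The median over all genes was itself -0.16, -0.09 and -0.18 in the 3 domains. Scaled by the median of ratios, or corrected for GC content, the dorsal count was 5 rather than 8.

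In ventral skin Fos went from 187, 193 and 187 FPKM in early anagen to the 2 low values given above, by -3.37 ± 0.14 (adjusted p = 1.37e-16). In chin it went from 134 and 187 to 22.8 and 23.2 FPKM, by -2.73 ± 0.15 (adjusted p = 9.25e-14), and in dorsal skin from 246 and 251 to 73.7, 76.6 and 68.7 FPKM, by -1.75 ± 0.14 (adjusted p = 4.64e-11). Fosb changed by -1.06 ± 0.19 (adjusted p = 0.00028) in chin, -2.70 ± 0.17 (adjusted p = 6.6e-13) in ventral and -2.35 ± 0.17 (adjusted p = 1.18e-11) in dorsal skin. Egr1 changed in the same order by -0.89 ± 0.10 (adjusted p = 1.25e-07), -0.90 ± 0.09 (adjusted p = 2.82e-09) and -0.79 ± 0.09 (adjusted p = 3.41e-08).

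Nr4a1 changed by -2.94 ± 0.18 (adjusted p = 1.67e-13) in ventral and -2.31 ± 0.18 (adjusted p = 2.68e-11) in dorsal skin. In chin the difference was -0.78 ± 0.20 (adjusted p = 0.00628), and the call was lost without chin early anagen replicate 2 (-0.71, adjusted p = 0.0523) or chin mid anagen replicate 1 (-0.52, adjusted p = 0.128). Atf3 fell in ventral (-1.51 ± 0.21 (adjusted p = 1.42e-06)) and dorsal skin (-1.95 ± 0.21 (adjusted p = 2.49e-08)). Junb was 1 of the 2 members that rose in ventral skin, from 205, 234 and 246 to 422 and 387 FPKM (0.82 ± 0.20 (adjusted p = 0.00153)). The other was Egr3 (0.66 ± 0.24 (adjusted p = 0.0308)). Without ventral early anagen replicate 2 or 3, or either ventral mid anagen replicate, 1 member rose.

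Ventral mid anagen was a trough for the FOS genes that late anagen left again. Fos read 79.0, 86.4 and 85.3 FPKM in ventral late anagen, 2.20 ± 0.14 (adjusted p = 4.85e-12) above mid anagen, and changed by -0.97 ± 0.14 (adjusted p = 3.03e-05) into catagen. Into catagen Atf3 changed by -1.04 ± 0.21 (adjusted p = 0.00259) and Nr4a1 by -0.95 ± 0.18 (adjusted p = 0.000948). At that step 6 members fell (3.1% of all genes), and 3 without either ventral catagen library. From mid to late anagen 5 rose in ventral skin (12.6% of all genes). In dorsal skin 0 of 10 members passed between mid and late anagen in limma, with 0 at an unadjusted p under 0.05, beside 1.15% of all genes higher and 1.53% lower.

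In refractory telogen chin skin was the high domain. In the F-test across domains 8 of 10 members passed (42.2% of all genes). Ventral skin was below chin for 6 members (24.7% of all genes) and dorsal skin for 9 (27.2%). The median over all genes was -0.17 and -0.14 in the 2 comparisons. Scaled by the median of ratios the dorsal count was 7, after quantile normalization 6 and after GC correction 5.

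Nr4a1 read 25.5 and 13.1 FPKM in ventral and 21.5 and 20.9 FPKM in dorsal refractory telogen against 69.3 to 70.2 FPKM in chin, log2 differences of -1.87 ± 0.18 (adjusted p = 2.78e-09) and -1.67 ± 0.18 (adjusted p = 1.86e-08). Atf3 read 7.42 and 9.83 and 9.56 and 7.73 FPKM against 26.9 to 44.4 FPKM, -1.80 ± 0.21 (adjusted p = 1.8e-07) and -1.79 ± 0.21 (adjusted p = 1.31e-07). Fosb differed by -1.76 ± 0.17 (adjusted p = 6.39e-09) and -1.51 ± 0.17 (adjusted p = 8.12e-08). Fos differed by -0.75 ± 0.14 (adjusted p = 0.000131) and -0.89 ± 0.14 (adjusted p = 8.74e-06). Egr1 was -0.47 ± 0.09 (adjusted p = 0.000113) in dorsal against chin skin, and not past the threshold after quantile normalization (-0.21, adjusted p = 0.0518) or GC correction (-0.20, adjusted p = 0.118).

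Between dorsal and ventral refractory telogen 0 of 10 members passed in limma (5.57% of all genes higher, 8.1% lower), with 1 at an unadjusted p under 0.05. The log2 difference of Fos was -0.14 (95% interval -0.45 to 0.17), and that of Jun -0.50 (95% interval -0.86 to -0.14) with an adjusted p of 0.0534. Jun passed with a filter of 5 FPKM (adjusted p = 0.0394) and when scaled by the median of ratios (-0.50, adjusted p = 0.028), and 1 member was higher after quantile normalization or GC correction. The 2 ventral libraries were the least alike of all replicates (0.29), and the count was 5 higher without replicate 1 and 2 lower without replicate 2.

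Chin refractory telogen also had the highest level of muscle markers among the skin groups. The summed level of 10 skeletal muscle markers was 10227 to 15541 FPKM there and 204.6 to 5938 FPKM in the other 17 skin groups, with dorsal early anagen the next highest (5709 to 5938 FPKM), and it was 17037 to 19797 FPKM in the cartilage/muscle complex. The summed level of 8 macrophage markers was 494 to 864 FPKM in chin refractory telogen and 57.0 to 517 FPKM in the other 17 groups. No marker of either list was at 0 in these groups. The part of muscle or macrophage content in the members' levels was not tested.

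In early anagen dorsal skin was the high domain. There 7 of 10 members passed the F-test (51.6% of all genes), and dorsal skin was above chin for 6 (16.7%) and above ventral for 6 (27.7%). Ventral skin was above chin for 2 members (13% of all genes), and for 1 without chin early anagen replicate 1. Atf3 read 21.2 and 18.9 FPKM in dorsal, 7.44 and 8.55 FPKM in chin and 6.83, 6.91 and 7.97 FPKM in ventral skin, 1.23 ± 0.23 (adjusted p = 0.000273) and 1.36 ± 0.21 (adjusted p = 7.99e-06) on the log2 scale. Fosb was higher by 0.97 ± 0.19 (adjusted p = 0.000369) and 1.01 ± 0.17 (adjusted p = 3.01e-05), and Nr4a1 was 1.09 ± 0.20 (adjusted p = 0.000123) above chin. Egr3 was 0.82 ± 0.24 (adjusted p = 0.00725) above ventral skin, a call lost without dorsal early anagen replicate 1 (0.80, adjusted p = 0.0519). The count over ventral skin was 3 when scaled by the median of ratios or corrected for GC content, and 2 without dorsal early anagen replicate 1. In dorsal skin Fos averaged 36.0 FPKM in the libraries labelled competent telogen and 248 FPKM in early anagen, values that are given without a test.

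In mid anagen members differed in both directions between dorsal and ventral skin. The 2 sets of members were formed from group means that include these groups, so their opposite directions here are no separate result. Of the 10 members 7 passed the F-test (38.1% of all genes), 5 were higher in dorsal than in ventral skin (16.1%) and 3 were lower (12.1%). Dorsal skin was above chin for 2 members (10%), and ventral skin below chin for 3 (11.8%). Fos was 2.01 ± 0.14 (adjusted p = 1.01e-11) above ventral and 1.62 ± 0.14 (adjusted p = 1.81e-09) above chin skin. Fosb (1.35 ± 0.17 (adjusted p = 1.13e-06)) and Atf3 (0.92 ± 0.21 (adjusted p = 0.00176)) were likewise above ventral skin. Junb (-0.78 ± 0.20 (adjusted p = 0.00479)), Jun (-0.54 ± 0.16 (adjusted p = 0.0106)) and Ier2 (-0.45 ± 0.16 (adjusted p = 0.0331)) were below it. Without ventral mid anagen replicate 1, 0 of these 3 passed, at values of -0.71 for Junb, -0.54 for Jun and -0.42 for Ier2, and 1 passed without replicate 2. Ier2 also did not pass after GC correction (-0.26, adjusted p = 0.161) or as TPM (-0.38, adjusted p = 0.0919).

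Competent telogen could be compared between chin and ventral skin only. There 4 members were higher in ventral skin (15.5% of all genes). Jun read 95.5, 77.8 and 80.3 FPKM in ventral against 37.9 and 31.2 FPKM in chin skin (1.27 ± 0.16 (adjusted p = 9.65e-07)), and Ier2 and Fos were higher by 0.95 ± 0.16 (adjusted p = 6.29e-05) and 0.66 ± 0.14 (adjusted p = 0.00082). Junb differed by 0.86 ± 0.20 (adjusted p = 0.00254), a call lost without chin competent telogen replicate 2 (0.60, adjusted p = 0.109). From there to early anagen 4 members fell and 0 rose in ventral skin (29.3% of all genes fell), while 2 rose beside the 4 that fell with median of ratios scaling, 3 with quantile normalization and 3 with GC correction. The median of the members was -0.07 as deposited and 0.16, 0.16 and 0.21 in those 3 settings, and that of all genes -0.10, 0.00, 0.00 and 0.17. The falls had differences of -0.61 ± 0.14 (adjusted p = 0.000772) for Jun, -0.75 ± 0.18 (adjusted p = 0.00134) for Junb and -0.60 ± 0.14 (adjusted p = 0.00106) for Ier2. Egr3 fell too, from 6.31, 7.13 and 6.35 to 3.02, 2.41 and 2.57 FPKM (-1.05 ± 0.22 (adjusted p = 0.000241)). In chin skin 0 of 10 members passed between these stages in limma, with 5 at an unadjusted p under 0.05 (1.26% of all genes were higher and 0.875% lower).

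The late anagen difference stood on the libraries labelled chin late anagen. Of the 10 members 7 passed the F-test across domains (20.8% of all genes), with ventral above chin for 7 (9.62%) and dorsal above chin for 6 (13.7%). The F-test count was 4 without chin late anagen replicate 1 and 2 without replicate 2, and the count of ventral above chin 3 and 2. Fos read 38.0 and 33.8 FPKM in the libraries labelled chin, 79.0, 86.4 and 85.3 FPKM in ventral and 69.9, 65.6 and 66.5 FPKM in dorsal skin, so that dorsal was 0.89 ± 0.14 (adjusted p = 2.82e-05) above chin and ventral did not overlap with chin either. Egr2 was 0.84 ± 0.13 (adjusted p = 2.49e-05) and 0.64 ± 0.13 (adjusted p = 0.000623) above. Without the libraries labelled chin late anagen, 0 of 10 members differed between dorsal and ventral late anagen in limma, with 1 at an unadjusted p under 0.05. In the fit with all libraries, 1.67% of all genes were higher in dorsal than in ventral late anagen and 1.47% lower. Beside the dorsal libraries labelled competent telogen, those labelled chin late anagen read 33.8 and 38.0 against 35.5 and 36.5 FPKM for Fos. For Egr1 the values were 52.1 and 52.6 against 52.8 and 53.9 FPKM. From chin mid anagen to these libraries 7 members fell and 1 rose (12.3% and 7.43% of all genes), but 4 fell without chin mid anagen replicate 1 or chin late anagen replicate 1, and 3 without chin late anagen replicate 2. From these libraries to chin catagen 1 member rose (8.94%).

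Dorsal catagen had the lowest mean of Jun, Junb, Ier2, Egr1, Egr2 and Egr3. For Egr1 this mean was 44.2 FPKM, beside 44.3 FPKM in chin mid anagen. After the GC correction described below, Egr1 was higher in dorsal catagen than in chin mid anagen (6.04 against 5.51 on the log2 scale). In catagen 8 of 10 members passed the F-test across domains (42.9% of all genes), and without the dorsal libraries 1 did, Nr4a1, which was -0.87 ± 0.18 (adjusted p = 0.00231) in ventral against chin skin (2.96% of all genes were lower) and lost its call without ventral catagen replicate 2 (-0.76, adjusted p = 0.0623). From late anagen to catagen 9 members fell in dorsal skin (18.7% of all genes). Junb went from 247, 242 and 296 FPKM to 27.8 and 24.6 FPKM (-3.27 ± 0.20 (adjusted p = 3.39e-13)), and back to 206 and 205 FPKM (2.93 ± 0.22 (adjusted p = 1.41e-11)). It read 232, 212 and 222 FPKM in chin and 312 and 237 FPKM in ventral catagen, so that dorsal skin was -3.04 ± 0.20 (adjusted p = 1.19e-12) and -3.33 ± 0.22 (adjusted p = 2.46e-12) from them. Dorsal catagen was below chin for 7 members and above it for 2 (20% and 21.3% of all genes), and below ventral skin for 6 and above it for 1 (16.4% and 19%). After the GC correction described below it was below chin for 6 and above for 3, and below ventral skin for 5 and above for 4. As deposited, the count above chin was 1 without chin catagen replicate 1 or dorsal catagen replicate 2, and 0 without dorsal catagen replicate 1.

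Ier2 changed by -1.86 ± 0.16 (adjusted p = 1.82e-10) into dorsal catagen and by 1.63 ± 0.17 (adjusted p = 9.13e-09) out of it, and Jun by -1.61 ± 0.16 (adjusted p = 2.53e-09) and 1.16 ± 0.17 (adjusted p = 2.55e-06). Egr2 changed by -1.27 ± 0.13 (adjusted p = 4.47e-09) and by 1.35 ± 0.14 (adjusted p = 5.76e-09). Egr3 was listed at 3.27, 2.99 and 2.89 FPKM in dorsal late anagen, at 0.00 and 0.08 FPKM in catagen and at 1.51 and 0.90 FPKM in refractory telogen, differences of -1.96 ± 0.24 (adjusted p = 1.68e-07) and 1.07 ± 0.27 (adjusted p = 0.00151) that depend on the pseudocount. At the same step Fos changed by -0.42 ± 0.14 (adjusted p = 0.0177), Fosb by -0.44 ± 0.17 (adjusted p = 0.0453), Egr1 by -0.46 ± 0.09 (adjusted p = 0.000114) and Nr4a1 by -0.98 ± 0.18 (adjusted p = 5.56e-05). The call for Fos was lost without dorsal late anagen replicate 1 (-0.39, adjusted p = 0.0516) or dorsal catagen replicate 2 (-0.37, adjusted p = 0.132), and that for Fosb in 18 of 43 fits without 1 library (adjusted p = 0.0501 to 0.27). Atf3 did not pass, and in catagen was 0.64 ± 0.21 (adjusted p = 0.0168) in dorsal against chin skin, a call lost without dorsal catagen replicate 1 (0.52, adjusted p = 0.157).

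These values moved with base composition. Junb and Ier2 have the most GC-rich transcripts of the 10 (62.6% and 60.9% GC, above 98.4% and 97.0% of genes), and their dorsal catagen differences shrank to -2.35 and -1.06 after a correction for GC content that was added after the data were seen. Jun (-1.18), Egr2 (-1.12), Egr3 (-1.82) and Nr4a1 (-0.45) also kept their direction and their calls. Fos did not pass (-0.24, adjusted p = 0.191), and Fosb (0.02, adjusted p = 0.932) and Egr1 (0.10, adjusted p = 0.459) changed sign. With the correction 6 members fell. From dorsal catagen to refractory telogen all 10 still rose with it, but by less for Ier2 (0.90 against 1.63), Egr1 (0.54 against 0.97), Junb (2.07 against 2.93) and Jun (0.88 against 1.16). Parts of Junb, Jun and Atf3 overlap Prdx2, the antisense gene Junos and Gm24748, and since the counting is not stated to use strand, reads in those stretches cannot be told apart.

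**Figure D5:**
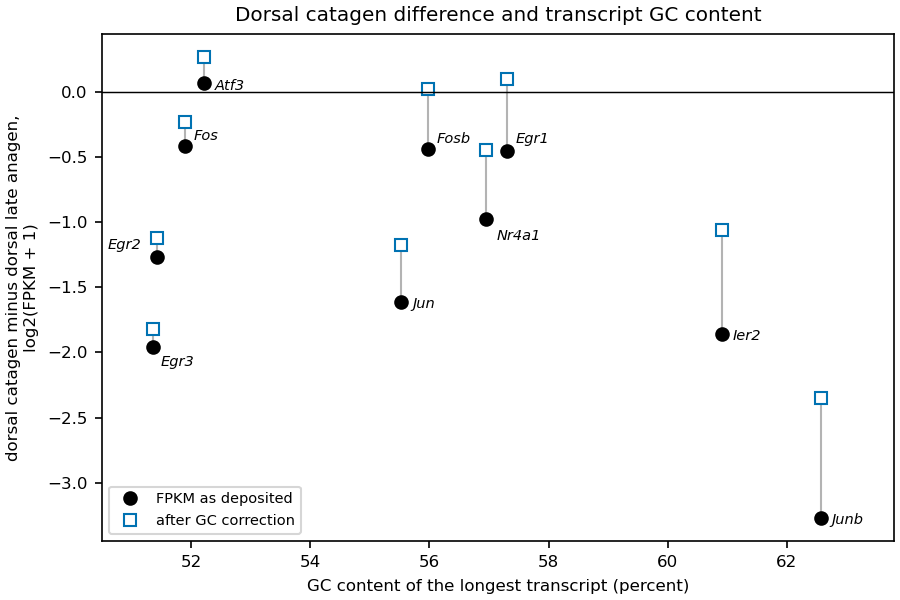
Difference of dorsal catagen minus dorsal late anagen in log2(FPKM + 1) against the GC content of the longest transcript for the 10 immediate early genes, as deposited (black circles) and after GC correction (open squares), joined by a line per gene. Junb moves from -3.27 to -2.35 and Ier2 from -1.86 to -1.06, and Egr2, with 51.4% GC, from -1.27 to -1.12.

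The other immediate early and primary response genes, 48 of them tested, were counted in the same contrasts. From catagen to refractory telogen 28 rose and 5 fell in chin, 14 rose and 5 fell in ventral and 27 rose and 7 fell in dorsal skin, with median log2 differences of 0.53, 0.14 and 0.49. Of all genes 30.5% rose and 17.5% fell in chin, 14.9% and 18.8% in ventral and 19.1% and 24.5% in dorsal skin. Dusp1, which encodes a phosphatase that switches off MAP kinases, was among the 4 largest in each domain (2.66 ± 0.10, 1.93 ± 0.12 and 2.24 ± 0.12). In chin Ctgf (2.24 ± 0.18), Cyr61 (2.20 ± 0.12) and Nfkbia, the inhibitor of NF-kappaB (2.17 ± 0.10), followed. In ventral skin from early to mid anagen 28 fell and 10 rose (25.6% and 16.8% of all genes), with the clock gene Per1 lowest (-2.35 ± 0.17) and Plk3 highest (1.94 ± 0.16).

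Of 19 upstream factors 9 rose and 2 fell in chin from catagen to refractory telogen, 2 and 4 in ventral and 5 and 8 in dorsal skin, to be read against the same shares of all genes. In chin the largest were Elk3 (0.67 ± 0.14), Elk4 (0.58 ± 0.12), Srf (0.57 ± 0.12) and Mapk9 (0.57 ± 0.17). Elk3 and Elk4 are ETS partners of serum response factor, which Srf encodes, and Mapk9 encodes a MAP kinase. Other genes led elsewhere. In ventral skin Rps6ka3 fell (-0.98 ± 0.16) and Mapk3 rose (0.62 ± 0.15). In dorsal skin Mapk3 rose (1.90 ± 0.15), and Rps6ka3 (-1.31 ± 0.16) and Atf1 (-1.03 ± 0.13) fell. Of 14 heat shock genes 4 rose and 7 fell in chin, 4 and 7 in ventral and 4 and 6 in dorsal skin. Hspa5 fell most in chin (-1.11 ± 0.11), where Hspa1a rose (0.69 ± 0.11). Hspb1 rose in ventral (0.72 ± 0.12) and dorsal skin (1.93 ± 0.12). The heat shock list had negative medians (-0.31, -0.20 and -0.28) where the members had positive ones, but its genes went both ways in each domain.

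Among 14581 further genes with a mean of at least 1 FPKM, Socs3 had the profile most like the mean of the members. Over the 18 group means its r was 0.97, and it is itself on the list of other immediate early and primary response genes. Its product restrains cytokine signalling, and it averaged 16.96 FPKM in chin refractory telogen, 16.6 FPKM in dorsal early anagen, 4.87 FPKM in ventral mid anagen and 2.53 FPKM in dorsal catagen. Tmem109 (0.96), Card14, Fam83f, Agfg2, Rhbdf1, Cnn2 and Pias3 (0.95 each) came next, and 100 genes exceeded 0.9. All 8 were lowest in dorsal catagen among these 4 groups. The mean scaled level of the members was itself lowest in dorsal catagen (-1.96), which stood apart in base composition. The next lowest was chin late anagen (-0.82). This mean also joins the 2 sets of members described above. The part of GC content in the ranking was not tested.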

How the data were processed

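The authors extracted total RNA from whole skin and from the cartilage/muscle complex, made libraries from full-length cDNA by tagmentation, sequenced them as read pairs and estimated expression with RSEM 1.2.25 on mm10 and a GENCODE annotation. The deposited FPKM values were corrected for batch effects in a way not given in the sources used here, and carry 2 decimals. Whether counting used strand is also not given. Groups came from the labels of each library. Counts were not used here, so depth was estimated from the steps between low FPKM values of 10457 single-transcript genes (median 12818966 fragments); it limits low genes such as Egr3, and covers counting error only.

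From the FPKM, log2(FPKM + 1) was fitted with limma 3.58.1 in R 4.3.3 as 18 group means over all 43 skin libraries, with a variance trend, for the 21257 genes that reached 0.5 FPKM in 2 or more libraries. All 10 members passed this filter. Adjusted p-values are Benjamini-Hochberg over these genes, with a threshold of 0.05, and tests are two-sided. A difference is on the log2(FPKM + 1) scale, which understates changes of low genes, and is given with its standard error. The procedure was tested on simulated data. In the ear table, and for dorsal competent telogen, values are described without a test because they served in choosing the members.

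The members and the gene lists were chosen with earlier results of these data known. All members are named, with the 4 genes of each list that changed most in a comparison (some of them given) and the 8 genes most alike in profile. Srf stands on 2 lists. Alternatives were a pseudocount of 0.1, no filter or at least 5 FPKM, TPM, median-of-ratios and quantile scaling, no variance trend, a replicate block and leaving out each library. A GC correction, and fits without the chin late anagen or dorsal catagen libraries, were added after the data were seen. The correction fitted a smooth curve (loess) of each library's deviations from the gene means on transcript GC content, and subtracted it. Promoter windows came from RefSeq and gene positions from GENCODE. Python 3.11.15 was used for all other steps.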

Additional observations from a re-analysis of the deposited data

Results flagged for a closer look

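Each member followed a different stage profile in different domains, by an interaction F-test in limma over the 5 stages other than competent telogen, with Benjamini-Hochberg adjustment over 21257 genes. The adjusted p was 1.07e-11 for Fos, 8.82e-09 for Fosb and 5.37e-09 for Atf3. It was 2.17e-09 for Nr4a1, 6.04e-08 for Egr1, 1.31e-09 for Egr2 and 5.51e-07 for Egr3. For Jun it was 9.11e-08, for Junb 1.70e-10 and for Ier2 2.70e-07. Of all genes 69.8% passed the same test, so the result is not particular to the members. The test includes the libraries labelled chin late anagen and those of dorsal catagen, whose limits are given above. Groups hold 2 or 3 libraries, which is too few to look for single outlying libraries.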

How the results depend on the processing

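Of the F-test counts, the total of pairwise calls and the ear count, 122 of 124 values under other settings stayed within 1.5 times the reported one, as did 478 of 480 with a library left out. Counts for single pairs of groups, by direction, moved further in 35 of 540 values under other settings and in 64 of 2580 with a library left out, some of which are given beside the results. The domain F-test in late anagen gave 0 members without the libraries labelled chin late anagen and 2 to 7 with any 1 library left out. In catagen it gave 1 member without the dorsal catagen libraries. After GC correction Fosb (0.023) and Egr1 (0.10) had a positive difference from dorsal late anagen to catagen. The difference of Fos between dorsal and ventral refractory telogen, which passed no test, was 0.073 after quantile normalization. With a pseudocount of 0.1 the dorsal late anagen to catagen difference of Egr3 was -4.55 and the ventral early to mid anagen difference of Fosb -4.09. The GC correction and the fits without whole groups were chosen after the data were seen.

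The replicate block called 154 of 300 member differences against 155 without it. Deviations of libraries that share a number had a median correlation of 0.003 in 327 pairs. For those with different numbers it was -0.00278 in 544 pairs. These pairs pool all groups that differ in domain or stage, so pairing of domains within a stage was not tested. The replicate block, with a common effect per number over all groups, does not test it either. Without the chin late anagen libraries 130 of 260 differences passed, and without the dorsal catagen libraries 119 of 260. Leaving out any 1 library gave 141 to 176. Ranges for the other F-test counts with 1 library left out were 3 to 5 in competent telogen, 6 to 7 in early anagen, 5 to 8 in mid anagen, 6 to 9 in catagen and 8 to 10 in refractory telogen, 9 to 10 over chin stages and 10 to 10 over ventral and dorsal stages and for the interaction. The ear count was 9 in every alternative. A group left with 1 library is assumed to vary like the others. Depth limits Egr3, listed at 0.00 and 0.08 FPKM in dorsal catagen.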
